A study of Capra hircus with 21 samples.

Results

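BTG4, PAIP1, CNOT10, YTHDF2, TUT7 and TENT5C encode proteins that act on the poly(A) tail of mRNA or on the proteins bound to it, and the group is built around BTG4 and the control of maternal mRNA tails. They were located by gene symbol, with 1 row each among the 19040 genes of the deposited table. The study sequenced RNA of goat (Capra hircus) oocytes that matured in the animal and of embryos that developed in the animal, collected at the 2-cell, 4-cell, 8-cell and 16-cell stages, as morulae and as blastocysts. Each of the 7 stages had 3 libraries, lettered A to C, for 21 in all. No treatment, genotype, breed or age is named for any stage, and the labels do not give the number of oocytes or embryos in a library or tie any library to an animal, so libraries of a stage may share a source. P-values therefore measure the spread between these libraries, which may be technical.

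A fully grown oocyte stores mRNA made before ovulation and later removes it while the embryo begins its own transcription. Removal starts with shortening of the poly(A) tail by the CCR4-NOT deadenylase complex, which is brought to its targets by adaptors such as BTG4 and by readers of modified mRNA such as YTHDF2. Terminal uridylyltransferases such as TUT7 add uridines to shortened tails and mark them for decay, while TENT5 enzymes extend tails and PAIP1 works with the tail-bound poly(A)-binding protein to promote translation. BTG4 is known in mammals as a gene of oocytes that is needed for clearance of maternal mRNA. Tail length itself was not measured in these samples, and how RNA was selected for sequencing is not given in the sources used here.

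Levels are given in RPKM, reads per kilobase of gene scaled to library size. In the deposited values the kilobases are those of the whole gene span, introns included, and 0.01 was added to every value, so 0.01 stands for no read and long introns lower the value that a given read count yields. Levels of different genes are compared below only on this per-length scale. RPKM is relative to the library, so a change in a gene and a change in the rest of the RNA, and likewise fewer cells and less RNA per cell, cannot be told apart. Reads in listed genes numbered 8.48 to 26.7 M per library. The label of morula A adds that its reverse read file was damaged.

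The summed RPKM of 5 oocyte genes (GDF9, BMP15, ZP2, ZP4 and MOS) was 146 to 226 in oocytes, below every 2-cell, 4-cell and 8-cell library (343 to 496, 297 to 325 and 348 to 417). It was 0.10 to 0.247 in blastocysts, where the sum of 4 blastocyst genes (KRT8, CDX2, GATA3 and TFAP2C) was 93.1 to 162, nearly all of it KRT8. Among genes of other cell types that flushed samples could carry, the summed level stayed at or below 0.427 RPKM for oviduct or uterine epithelium (3 of 5 genes found), 0.0944 for blood cells (2 of 5) and 0.184 for sperm (2 of 5). It was up to 6.22 for cumulus or granulosa cells (7 of 8) and up to 8.00 for stroma (4 of 5), and lower in blastocysts (at most 0.288 and 0.128). In the cumulus list STAR reached 5.86 RPKM and TNFAIP6 1.86, while PTX3, INHBA, CYP11A1, FSHR and CYP19A1 did not exceed 0.0638 RPKM in any library. In the stroma list LUM reached 5.24 RPKM and DCN 4.07, while COL1A1 and COL1A2 did not exceed 0.448. The part of these genes in the changes below was not tested. Within 16-cell embryos and morulae, library C stood apart: its oocyte marker sum was 138 against 35.8 and 39.5 in 16-cell A and B, and 53.4 against 1.78 and 3.98 in morula A and B. The cumulus and stroma sums were also higher in morula C, at 3.24 RPKM against 0.111 and 0.108 in morula A and B, and at 1.98 against 0.0711 and 0.291. The sums for oviduct or uterine epithelium (0.422) and blood cells (0.0285) were highest in morula C as well, at low levels. The sperm sum was highest in morula A, at 0.0608 against 0.0364 in C.

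**Figure D1:**
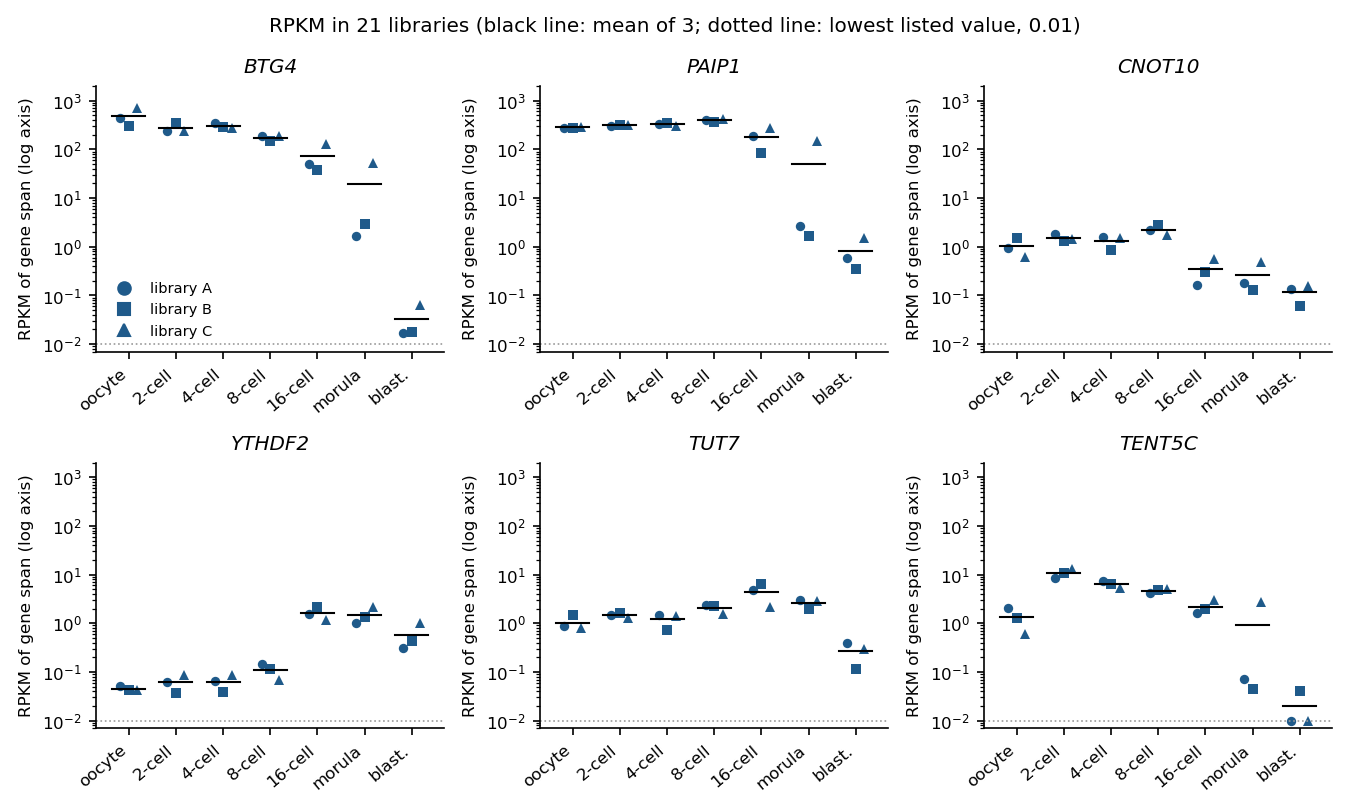
RPKM of the gene span (log axis) of the 6 genes in 7 stages, 1 symbol per library, with a black line at the mean of 3 libraries and a dotted line at 0.01, the value of a gene with no read. BTG4 and PAIP1 lie above 150 RPKM in every library up to the 8-cell stage and at or below 1.54 RPKM in blastocysts, while YTHDF2 is highest in 16-cell embryos and morulae.

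All 6 genes passed the filter of at least 1 RPKM in at least 3 libraries and varied with stage (limma moderated F test, adjusted p between 9.69e-09 and 1.47e-05), as did 93.8% of the 4253 genes tested. YTHDF2 reached 1 RPKM in 6 libraries, all of 16-cell embryos or morulae, and CNOT10 in 9, all of oocytes to 8-cell embryos, so both passed through the stages in which they were high. A change was called at an adjusted p under 0.05 together with a log2 fold change of at least 1 in size on the log2(RPKM + 1) scale. That scale understates changes of genes near or below 1 RPKM.

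From oocyte to 2-cell embryo 1 of the 6 was called, TENT5C (higher), against 4.37% of all genes tested called higher. From 2-cell to 4-cell 0 of 6 were called, and 0% of all genes, with limma, and 0 of the 6 had an unadjusted p under 0.05. From 4-cell to 8-cell 0 of 6 were called against 0.682%, and 1, CNOT10, had an unadjusted p under 0.05. Between 8-cell and 16-cell YTHDF2 rose and CNOT10 fell, 2 of 6 against 35.3% of all genes, which is near the background share. That count was 5 without 16-cell C and 4 without morula C. From 16-cell to morula BTG4 and PAIP1 fell, 2 of 6 against 4.66% called lower (1 without morula A and 3 without morula C), and from morula to blastocyst BTG4, PAIP1 and TUT7 fell, 3 of 6 against 25.3% called lower. Over longer intervals, TENT5C rose from oocyte to 8-cell (1 of 6 against 8.02% called higher, or 0 without oocyte C and 2 without morula C), and from 8-cell to morula 5 of 6 were called, YTHDF2 higher and BTG4, PAIP1, CNOT10 and TENT5C lower, against 48.7% of all genes.

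**Figure D2:**
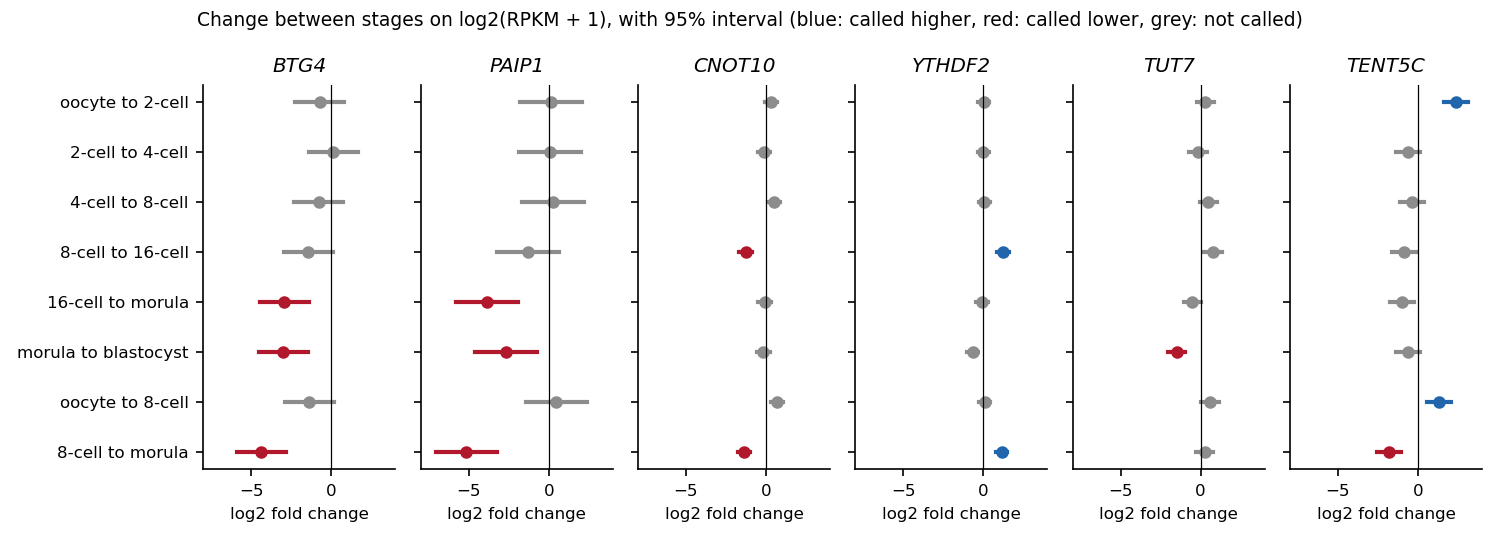
Log2 fold change between stages on log2(RPKM + 1), with its 95% interval from limma, for the 6 genes in 8 comparisons, where blue is called higher, red called lower and grey not called. Intervals are widest for PAIP1 and BTG4 and narrowest for YTHDF2 and CNOT10, on a scale that understates differences between values near or below 1 RPKM.

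BTG4, the adaptor that links CCR4-NOT to maternal mRNA, was among the most abundant transcripts of the oocyte and nearly absent from the blastocyst. The gene spans 15.5 kb at 15:60577010-60592524 on the plus strand, in the coordinates of the table, whose genome build is not given in the sources used here. Its RPKM was 445, 297 and 715 in oocytes A to C, 242, 350 and 243 in 2-cell, and 349, 282 and 269 in 4-cell embryos. These ranges overlapped, and the gene stood between rank 15 and rank 27 of 19040 by RPKM in oocytes, where it took 2.10% ± 0.886 (SD, n = 3) of all gene reads.

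At the 8-cell stage BTG4 measured 185, 151 and 186 RPKM, below every earlier library. It then measured 49.4, 37.5 and 130 in 16-cell embryos, 1.65, 3.0 and 52.3 in morulae and 0.0171, 0.0179 and 0.0630 in blastocysts, the last from 5, 7 and 29 reads. The 16-cell and morula ranges overlapped because of morula C, while every blastocyst library was below every morula library. Of all genes tested, 16.6% were lower without overlap from 4-cell to 8-cell and 42.3% from morula to blastocyst. The stage means of BTG4 were 486 ± 212 RPKM in oocytes, 174 ± 20.1 at the 8-cell stage and 0.0327 ± 0.0263 in blastocysts (SD, n = 3 each), a 7666-fold difference between 8-cell and blastocyst after removal of the added 0.01, or 23139-fold without blastocyst C.

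The falls of BTG4 from 16-cell to morula (log2 fold change -2.94, SE 0.73, adjusted p = 0.00685, limma) and from morula to blastocyst (-3.0, SE 0.73, adjusted p = 0.00272) were called. Both calls were lost in a fit on the 2 stages alone (adjusted p = 0.123 and 0.0517), the second also with a pseudocount of 5 (0.0523), and its size was -1.66 without morula C. The change from oocyte to 8-cell (-1.39, 95% interval -2.92 to 0.14, adjusted p = 0.186) and that from 8-cell to 16-cell (-1.46, -2.99 to 0.07, adjusted p = 0.0955) were not. These changes were called without 16-cell C and morula C (adjusted p = 0.00339 and 0.000143). The second was also called without either library alone (0.0403 without 16-cell C, 0.00495 without morula C), and the first without morula C (0.0165). With all libraries kept, both were called in a fit on the 2 stages alone (adjusted p = 0.00859 and 0.0155). The second was also called with quantile normalization (-2.19, adjusted p = 0.00667) and median-ratio scaling (-1.94, 0.0216). Of 31 alternatives, 28 left the first uncalled and 25 the second. Both intervals rest on a spread pooled over all stages, not on the compared libraries alone. The fall from 16-cell to morula was lost without morula A (adjusted p = 0.0613). In order of stage means BTG4 ran oocyte, 4-cell, 2-cell, 8-cell, 16-cell, morula and blastocyst, and of neighbours in that order only morula against 16-cell and blastocyst against morula were called.

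PAIP1, a partner of poly(A)-binding protein and of the translation initiation machinery, was also among the most abundant transcripts, between rank 25 and rank 36 of 19040 by RPKM from oocyte to 8-cell embryo, and was highest at the 8-cell stage. It spans 29.1 kb at 20:31241299-31270352 on the plus strand. Libraries A to C gave 278, 276 and 292 RPKM in oocytes, 305, 310 and 314 in 2-cell, 332, 346 and 301 in 4-cell and 401, 367 and 419 in 8-cell embryos. All 3 8-cell libraries were above all earlier libraries, and PAIP1 took 2.89% ± 0.312 (SD, n = 3) of gene reads there, against 2.29% ± 0.0408 in oocytes. Of all genes tested, 18.9% were higher without overlap from 4-cell to 8-cell and 40.4% from oocyte to 8-cell.

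Its values spread widely after the 8-cell stage. They were 186, 84.4 and 270 RPKM in 16-cell embryos, 2.66, 1.64 and 145 in morulae and 0.578, 0.353 and 1.54 in blastocysts. Morula C overlapped the 16-cell libraries, and the other morulae lay just above blastocyst C. PAIP1 fell from 16-cell to morula (log2 fold change -3.86, SE 0.92, adjusted p = 0.00512, limma), a call lost in a fit on the 2 stages alone (0.118). The further fall to the blastocyst (-2.68, adjusted p = 0.0242) was lost in 9 of 31 alternatives, among them those without morula C (-0.82, adjusted p = 0.127), without blastocyst A (0.0629) and without blastocyst B (0.0851). The difference from 8-cell to 16-cell (-1.28, 95% interval -3.21 to 0.64, adjusted p = 0.243) was called without 16-cell C and morula C (-1.65, adjusted p = 0.000636) and without morula C alone (adjusted p = 0.00586). With all libraries of both stages kept, it was called with quantile normalization (-1.99, adjusted p = 0.0400) and in a fit on the 2 stages alone (adjusted p = 0.0267). No step between oocyte and 8-cell was called, and the change over that whole interval was 0.48 (-1.44 to 2.41, adjusted p = 0.792). That interval rests on a spread pooled over the 7 stages, not on the oocyte and 8-cell libraries alone. The SD of PAIP1 was 8.88 RPKM in oocytes and 26.2 in 8-cell embryos, against 92.8 in 16-cell embryos and 82.7 in morulae.

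The RPKM of PAIP1 divided by that of BTG4 was 0.654 ± 0.261 in oocytes, 1.15 ± 0.227 in 2-cell, 1.10 ± 0.139 in 4-cell and 2.28 ± 0.140 in 8-cell embryos (SD, n = 3 each). The 8-cell ratios lay above all earlier ones. Exact two-sided permutation tests gave p = 0.1 for oocyte against 8-cell and for 4-cell against 8-cell, the smallest value that 3 libraries against 3 allow, 0.2 for oocyte against 2-cell and 0.7 for 2-cell against 4-cell. No comparison of this size can reach 0.05, and the values adjusted over the 4 were 0.2, 0.2, 0.267 and 0.7.

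CNOT10 encodes a subunit of CCR4-NOT without deadenylase activity. It spans 44.5 kb at 22:7021934-7066451 on the plus strand, and its level was low at every stage. RPKM was 0.961, 1.52 and 0.625 in oocytes, 1.79, 1.29 and 1.43 in 2-cell, 1.57, 0.865 and 1.5 in 4-cell and 2.18, 2.81 and 1.77 in 8-cell embryos. The 8-cell mean, 2.25 ± 0.522, was the highest, but 8-cell C lay within the 2-cell range. The difference from oocyte to 8-cell had an adjusted p of 0.0105 in limma with a log2 fold change of 0.69, short of the size required for a call.

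After the 8-cell stage CNOT10 was lower in every library: 0.163, 0.310 and 0.556 RPKM in 16-cell embryos, 0.176, 0.127 and 0.483 in morulae and 0.135, 0.0612 and 0.157 in blastocysts. The 16-cell libraries did not overlap any earlier stage. Of all genes tested, 36.1% were lower without overlap from 8-cell to 16-cell. The fall of CNOT10 from 8-cell to 16-cell was 6.74-fold after removal of the added 0.01 (log2 fold change -1.27 on the log2(RPKM + 1) scale, SE 0.18, adjusted p = 1.57e-05, limma). CNOT10 passed the filter only through libraries up to the 8-cell stage, so the test of this fall is not separate evidence for it. Neighbouring stages after it were not called (16-cell to morula -0.09, 95% interval -0.47 to 0.29, adjusted p = 0.753, and morula to blastocyst -0.17, -0.55 to 0.22, adjusted p = 0.477).

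Most other CCR4-NOT genes had their highest mean at the 8-cell stage as well. Among 11 subunit genes by stage mean, this held for CNOT2, CNOT4, CNOT6, CNOT6L, CNOT7, CNOT8 and CNOT10. CNOT3 and CNOT9 peaked at the 2-cell stage, CNOT11 at the 16-cell stage and CNOT1, the scaffold, in morulae. The share of all genes with their highest mean at each stage is not given here, so these peaks are a description. In blastocysts CNOT1 was still at 80.1% of its highest mean, and the other 10 were between 0.887% (CNOT6L, a deadenylase) and 17.5% (CNOT9). TNKS1BP1, listed with the complex, did not exceed 0.0437 RPKM by stage mean.

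Of 12 genes in this group, 6 passed the RPKM filter. Of these CNOT10 alone was called lower from 8-cell to 16-cell, CNOT7, a deadenylase that BTG4 binds, was called lower from morula to blastocyst (2.57 to 0.431 RPKM, log2 fold change -1.32), and both fell from 8-cell to morula. Over all genes 15.9%, 25.3% and 21.8% were called lower in these comparisons, so 1 of 6 is near the background at the first step and below it at the second. When values were not divided by the gene span (RPM, reads scaled to library size alone), 11 of the 12 could be tested. CNOT1, CNOT3, CNOT6 and CNOT9 then rose from oocyte to 2-cell, with CNOT1 going from 6.49 ± 2.56 to 45.1 ± 8.39 RPM (log2 fold change 2.66, adjusted p = 0.000349, limma), in a comparison where 14% of 10384 genes were called higher. On that scale CNOT2, CNOT3, CNOT6, CNOT6L and CNOT10 fell from 8-cell to 16-cell, 5 of 11 against 30.7% called lower, and 8 of 11 fell from morula to blastocyst against 28.1%.

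**Figure D3:**
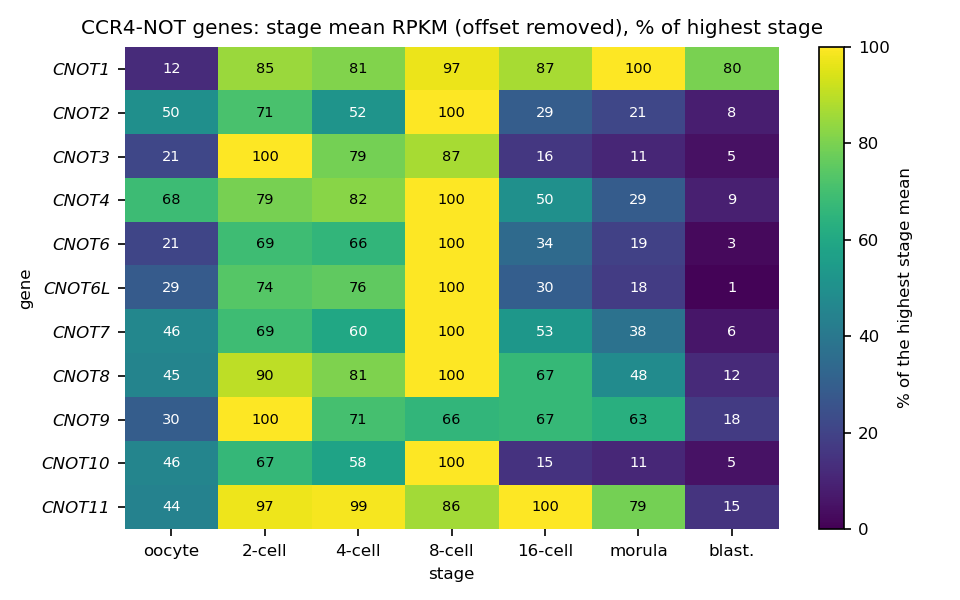
Stage mean RPKM of 11 CCR4-NOT genes after removal of the added 0.01, as a percentage of the highest stage mean of the same gene (colour and printed value). CNOT10 drops from 100% at the 8-cell stage to 14.8% at the 16-cell stage, CNOT11 stays near its highest mean through both, and CNOT1 stays above 80% from the 2-cell stage to the blastocyst.

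YTHDF2, which binds N6-methyladenosine in mRNA and recruits CCR4-NOT to it, was low while BTG4 was high. It spans 29.2 kb at 2:11218106-11247288 on the plus strand. Oocytes A to C gave 0.0503, 0.0421 and 0.0436 RPKM, and the 2-cell, 4-cell and 8-cell libraries lay between 0.0375 and 0.144. The lowest of these 12 libraries still held 44 reads, so the transcript was counted in every library, at a low level.

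In 16-cell embryos YTHDF2 measured 1.58, 2.12 and 1.18 RPKM, all above every earlier library, and in morulae 1.01, 1.32 and 2.20. Blastocysts gave 0.313, 0.442 and 0.994, between the 8-cell and morula ranges. Of all genes tested, 31.5% were higher without overlap from 8-cell to 16-cell. The rise of YTHDF2 from 8-cell to 16-cell was 16.2-fold after removal of the added 0.01, from a mean of 0.110 ± 0.0384 to 1.63 ± 0.473 RPKM (SD, n = 3 each; log2 fold change 1.23 on the log2(RPKM + 1) scale, SE 0.17, adjusted p = 1.07e-05, limma). YTHDF2 passed the filter only through 16-cell and morula libraries, so tests of its rise to these stages are not separate evidence for it. The rise from 8-cell to morula (1.15, adjusted p = 1.00e-05) was short of the size for a call without morula C (0.96) and with median-ratio scaling (0.71). Morula to blastocyst (-0.66, adjusted p = 0.00403) was short of a log2 fold change of 1, and was called with values not divided by the gene span (-1.43, adjusted p = 0.00872). No pair among oocyte, 2-cell, 4-cell and 8-cell was called (adjusted p between 0.806 and 1).

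Among the 5 YTH reader genes the rise was shared by YTHDF3, which went from 0.616 ± 0.137 to 2.65 ± 1.18 RPKM from 8-cell to 16-cell (log2 fold change 1.12). These are the 2 readers that passed the filter. By 8-cell mean YTHDF3 was also under the 1 RPKM of the filter and may have passed it through later stages. YTHDF1 stayed between 0.0393 and 0.0775 RPKM by stage mean. YTHDC1, the nuclear reader, had its highest mean at the 16-cell stage (1.09 ± 0.193 RPKM, from 0.343 ± 0.0582 at the 8-cell stage) and YTHDC2 its lowest (0.103 ± 0.0396). Without division by the span YTHDC1 also rose and YTHDC2 fell at this step, so 4 of 4 readers tested were called, against 46.1% of all genes.

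TUT7, a terminal uridylyltransferase that acts on mRNA with short tails, was highest at the 16-cell stage. It spans 55.6 kb at 8:79202780-79258339 on the minus strand. RPKM was 0.864, 1.45 and 0.781 in oocytes, 1.44, 1.62 and 1.31 in 2-cell, 1.51, 0.727 and 1.39 in 4-cell and 2.34, 2.24 and 1.53 in 8-cell embryos. These stages overlapped. It was 4.74, 6.43 and 2.21 in 16-cell embryos, 3.07, 1.95 and 2.83 in morulae and 0.390, 0.117 and 0.297 in blastocysts, which lay below all other libraries. Of all genes tested, 42.3% were lower without overlap from morula to blastocyst.

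The step of TUT7 from 8-cell to 16-cell had a log2 fold change of 0.77 (adjusted p = 0.0148, limma), short of the size for a call, and 16-cell C overlapped the 8-cell range. Without 16-cell C it was called (1.12, adjusted p = 0.000397). The fall from morula to blastocyst was 10.1-fold after removal of the added 0.01 (-1.51, SE 0.26, adjusted p = 0.000126). Its size fell below the threshold with quantile normalization (-0.88) and median-ratio scaling (-0.91), which also moved the median of all genes in this comparison from -0.48 to -0.01 and -0.06. TUT4, the related uridylyltransferase, did not pass the RPKM filter and was highest in oocytes, at 0.150 ± 0.0784 RPKM. Without division by the span it fell from oocyte to 2-cell, from 18.6 ± 10.4 to 4.90 ± 1.49 RPM (log2 fold change -1.57, adjusted p = 0.0279). LIN28A, an RNA-binding protein that recruits TUT enzymes to a microRNA precursor, rose over that interval on RPKM, from 0.840 ± 0.492 to 3.14 ± 0.545 (1.19, adjusted p = 0.00188), short of a call with quantile normalization (0.93) and without division by the span (0.98).

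TENT5C, a non-canonical poly(A) polymerase, was highest in 2-cell embryos. Its row spans 1.18 kb at 3:94962769-94963945 on the plus strand, so its RPKM rests on few reads (38 to 128 in oocytes). Whether this short row holds the whole transcript, untranslated regions included, is not known from the sources used here, and its reads and RPKM count only what falls within it. Oocytes A to C gave 2.07, 1.30 and 0.607 RPKM and 2-cell embryos 8.68, 10.8 and 12.8, with no overlap. Of all genes tested, 37.1% were higher without overlap in this comparison. The rise of TENT5C was 8.16-fold after removal of the added 0.01 (log2 fold change 2.37, SE 0.36, adjusted p = 0.000445, limma), and it was called in all 31 alternatives.

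Later libraries of TENT5C stepped down without overlap through 7.50, 6.55 and 5.39 RPKM in 4-cell, 4.20, 4.84 and 4.99 in 8-cell and 1.60, 1.96 and 3.06 in 16-cell embryos. Of all genes tested, 10.7%, 16.6% and 36.1% were lower without overlap at these steps in turn. None of these single steps was called (adjusted p = 1, 0.704 and 0.0511), while 2-cell to 16-cell was (-1.88, adjusted p = 0.00023, with 18% of all genes called lower). The last step was called without 16-cell C (-1.03, adjusted p = 0.0333) and with median-ratio scaling (-1.22, adjusted p = 0.00169). In morulae the gene had 4, 1 and 195 reads, or 0.0707, 0.0454 and 2.67 RPKM, so the morula mean rests on library C. Blastocysts had 0, 2 and 0 reads, and with 3 reads per library as the limit the 8-cell mean was at least 80.8-fold higher. The rise from oocyte to 8-cell (1.33, adjusted p = 0.0112) was lost without oocyte C (adjusted p = 0.0723).

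In the TENT5 family, TENT5D was at similar levels but did not show the step at the 2-cell stage as a call. It measured 3.34 ± 1.24 RPKM in oocytes, 6.04 ± 1.83 in 2-cell and 4.97 ± 1.22 in 8-cell embryos, and fell to 1.69 ± 0.396 at the 16-cell stage (log2 fold change -1.14) and to 0.0150 ± 0.00864 in blastocysts. Whether the 2 genes differ in the step from oocyte to 2-cell was not tested. TENT5A and TENT5B stayed under 0.43 RPKM by stage mean and did not pass the filter.

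The BTG and TOB family changed its composition after the 8-cell stage. BTG4 made up most of the family's RPKM up to that stage, when BTG1, BTG2, BTG3, TOB1 and TOB2 had stage means of 0.204 to 3.21. BTG1, BTG2 and BTG3 then rose to the 16-cell stage, from 0.759 ± 0.10 to 6.01 ± 2.55, from 3.15 ± 2.67 to 13.0 ± 7.27 and from 0.204 ± 0.115 to 7.56 ± 3.02 RPKM (log2 fold changes 1.94, 1.82 and 2.77), 3 of 5 genes tested and 0 lower, against 19.4% of all genes called higher. By 8-cell mean BTG1 and BTG3 were under the 1 RPKM of the filter and may have passed it through later stages, so this count is a description. In morulae BTG3 was at 9.95 ± 5.88, TOB1 at 8.34 ± 2.44 and BTG1 at 7.17 ± 3.51 RPKM, while BTG4 was at 19.0 ± 28.9, with libraries A and B at 1.65 and 3.0. From morula to blastocyst BTG1, BTG2, BTG3 and BTG4 fell, 4 of 5 against 25.3% of all genes called lower, and TOB1 had the highest blastocyst mean of the family (4.86 ± 2.19 RPKM).

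**Figure D4:**
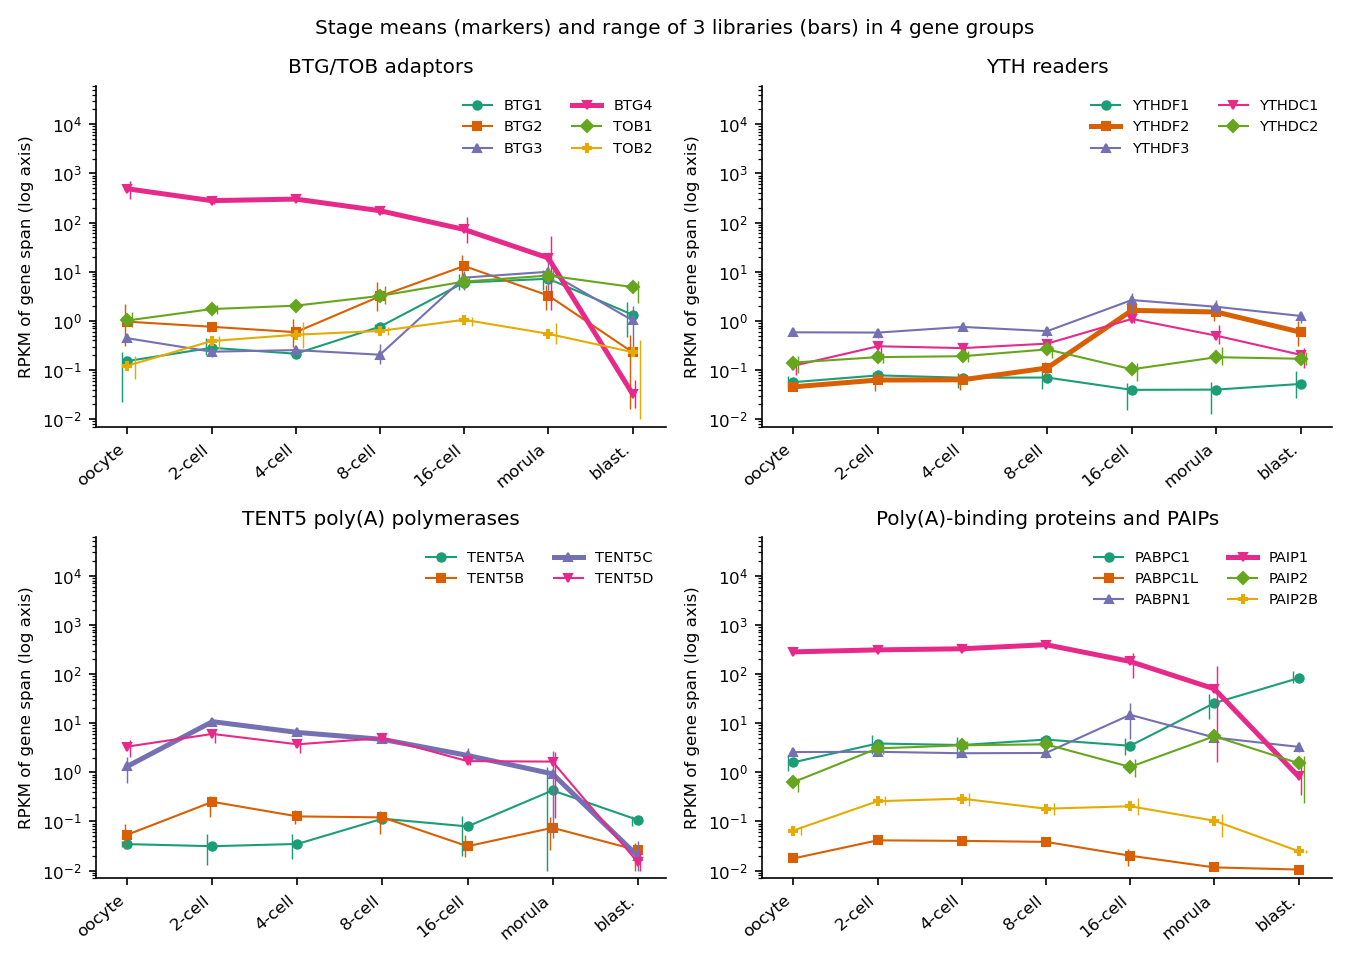
Stage means (markers) and the range of 3 libraries (vertical bars) in RPKM of the gene span, on a log axis, for the BTG and TOB adaptors, the YTH readers, the TENT5 polymerases and the poly(A)-binding proteins with PAIPs; thick lines are BTG4, YTHDF2, TENT5C and PAIP1. BTG1, BTG2 and BTG3 rise at the 16-cell stage while BTG4 is going down, and PABPC1 reaches 82.4 RPKM in blastocysts where PAIP1 is at 0.823.

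PABPC1 rose where PAIP1 fell. PABPC1, the cytoplasmic poly(A)-binding protein of somatic cells, rose from 3.47 ± 1.32 RPKM in 16-cell embryos to 25.6 ± 13.3 in morulae and 82.4 ± 29.5 in blastocysts (log2 fold changes 2.47 and 1.73, adjusted p = 0.00036 and 0.00196, limma). PABPN1, the nuclear form, rose from 2.48 ± 0.638 to 14.8 ± 10.8 RPKM from 8-cell to 16-cell (1.93, adjusted p = 0.000246). PAIP2, which competes with PAIP1 for poly(A)-binding protein and represses translation, rose from 0.629 ± 0.208 in oocytes to 3.07 ± 0.681 RPKM in 2-cell embryos (1.31, adjusted p = 0.00754). It fell at the 16-cell stage to 1.29 ± 0.519, rose to 5.41 ± 0.547 in morulae and fell to 1.53 ± 1.12 in blastocysts.

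Libraries C of the 16-cell and morula stages held more of the early transcripts than their stage mates. Against the 8-cell mean, BTG4 was at 28.4%, 21.5% and 74.5% in 16-cell A to C and at 0.947%, 1.72% and 30.1% in morula A to C. PAIP1 was at 47.0%, 21.3% and 68.2% and then at 0.673%, 0.414% and 36.7%. TENT5C was at 1.51% and 0.971% in morula A and B and at 57.1% in morula C, and CNOT10 at 7.82%, 5.63% and 21.4%.

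The late genes did not all separate these libraries in the same way. TUT7 was at 233% and 316% of its 8-cell mean in 16-cell A and B and at 108% in C, whereas YTHDF2 was at 921% and 1201% in morula A and B and at 2005% in C. The oocyte marker sum, and in morulae the cumulus and stroma sums, moved with BTG4, PAIP1 and TENT5C in these libraries, as given above, and their part in the result was not tested. The summed RPKM of 3 genes of genome activation (KLF17, EIF1AX and KLF4), at most 5.94 up to the 8-cell stage, was 156, 153 and 59.6 in 16-cell A to C and 84.3, 83.8 and 107 in morula A to C. TUT7 and YTHDF2 were, like this sum, lowest in library C among the 16-cell libraries, and in morulae YTHDF2 but not TUT7 was, like the sum, highest in C. The part of these genes was not tested either. Without 16-cell C and morula C, 6 of 6 genes were called from 8-cell to 16-cell, YTHDF2 and TUT7 higher and the other 4 lower. Calls rose over all genes too, to 870 higher and 915 lower of 4151, against 827 and 675 of 4253 with all libraries. Of the 49 list genes tested, 24 were called, against 16. For all 6 genes 16-cell C lay nearest the 8-cell mean among the 16-cell libraries, so leaving it out enlarges each change. In the fit without these libraries TENT5C also fell from 16-cell to morula (-1.39), and PAIP1 was no longer called from morula to blastocyst (-0.82, adjusted p = 0.0707).

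**Figure D5:**
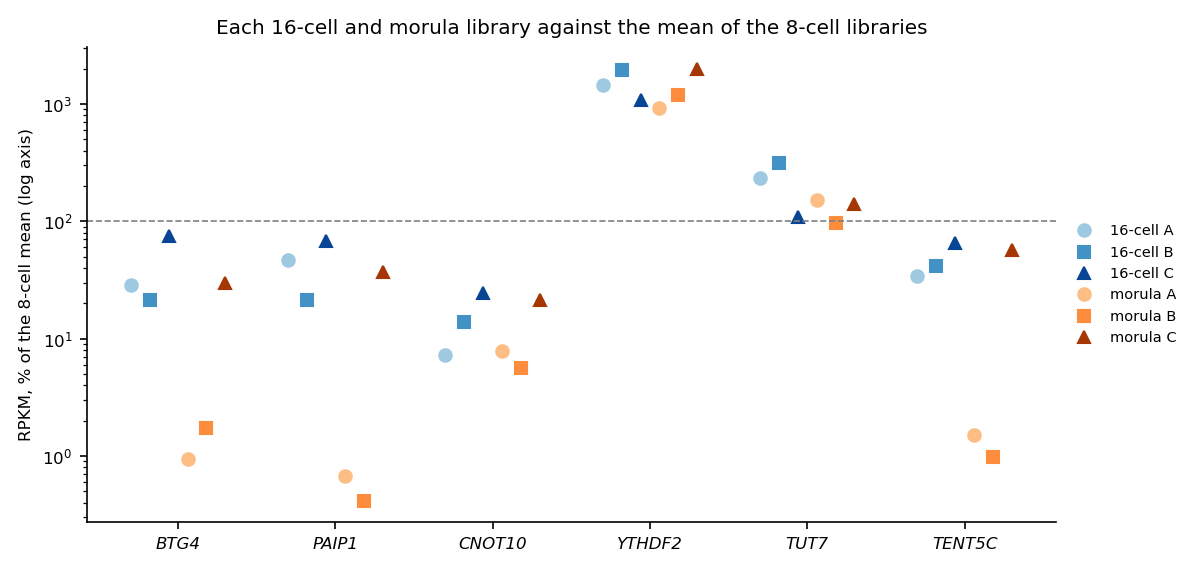
RPKM of each 16-cell and morula library as a percentage of the mean of the 3 8-cell libraries of the same gene (log axis), with a dashed line at 100%. Morula A and B are below 2% for BTG4, PAIP1 and TENT5C while morula C is between 30.1% and 57.1%, and YTHDF2 is between 921% and 2005% in all 6 libraries.

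The wider list of mRNA tail control and decay held 130 symbols, of which 115 were found and 49 passed the RPKM filter. The 6 members are among the 115 and the 49. By stage mean, 31 of the 115 were highest in 8-cell embryos, 26 in 2-cell embryos, 21 in 16-cell embryos, 19 in morulae, 9 in blastocysts, 5 in oocytes and 4 in 4-cell embryos. These counts include genes that did not pass the filter. The matching shares over all genes are not given here, so the counts are a description. From oocyte to 2-cell TENT5C, PAIP2 and LIN28A rose and none fell, 3 of 49 against 4.37% of all genes higher and 0.4% lower, with a median log2 fold change of 0.17 over the 49 genes and 0.19 over all genes tested. From 2-cell to 4-cell and from 4-cell to 8-cell 0 were called with limma, and 1 and 10 had an unadjusted p under 0.05. From oocyte to 8-cell, where 8.02% of all genes were called higher and 3.48% lower, 6 rose, among them PAPOLG, a nuclear poly(A) polymerase (6.74 ± 2.88 to 16.4 ± 4.38 RPKM, log2 fold change 1.20, adjusted p = 0.0399, lost in 8 of 31 alternatives, among them those without oocyte A, oocyte C, 8-cell A or 8-cell B, at 0.105 to 0.153), and 1 fell, LSM7 of the decapping-linked LSM ring (14.9 ± 4.06 to 6.53 ± 1.94, -1.08, adjusted p = 0.0445, lost in 16 of 31, at up to 0.192 without 8-cell B and 0.167 without oocyte A). The count called in this interval was 3 without oocyte C and 4 without 8-cell A, and with quantile normalization 3 rose and 2 fell.

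From 8-cell to 16-cell 9 genes of the list rose and 7 fell (median -0.42, all genes -0.14), or 7 and 18 with median-ratio scaling. Of all genes 19.4% were called higher and 15.9% lower, so the counts are at the background. Beside the genes above, the largest falls were those of PAPOLG (16.4 ± 4.38 to 2.57 ± 2.07 RPKM, -2.40), CBLL1, a partner of the m6A writer complex (35.4 ± 4.76 to 9.48 ± 4.56, -1.87), and AURKA, a kinase linked to cytoplasmic polyadenylation (104 ± 19.5 to 38.8 ± 21, -1.51, adjusted p = 0.0348, lost in 6 of 31 alternatives, among them those without any 1 of the 8-cell libraries or without 16-cell A or B, at 0.0577 to 0.142). From 16-cell to morula 4 rose and 4 fell (median -0.20, all genes 0.01), and 2 and 6 with median-ratio scaling. Without the 6 members, 4 rose and 2 fell of 43 (median -0.19). Of all genes 11.4% were called higher and 4.66% lower. The count over the whole list was 5 without 16-cell A, 4 without morula A and 14 without morula C. Beside PABPC1 and PAIP2, LSM3 rose (1.65 ± 0.176 to 9.29 ± 4.21, 1.87), and BTG2 fell with BTG4 and PAIP1 (13.0 ± 7.27 to 3.27 ± 1.83, -1.69, lost without 16-cell A at an adjusted p of 0.0536 and without morula A at 0.0543).

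From morula to blastocyst 2 genes of the list rose and 15 fell (median -0.55, all genes -0.48), near the 3.93% and 25.3% of all genes. Quantile normalization split the calls 3 to 7, and median-ratio scaling 3 to 6. ZFP36, which recruits CCR4-NOT to AU-rich mRNA, rose with PABPC1 (1.35 ± 0.754 to 3.91 ± 1.27 RPKM, log2 fold change 1.08, but 0.78 without morula C and 0.93 without blastocyst A), and AURKA fell to 1.69 ± 0.824 RPKM (-2.60, or -1.66 without morula C). From 8-cell to morula 9 rose and 15 fell (median -0.28, all genes 0.01), and 5 and 20 with median-ratio scaling. Without the 6 members, 8 rose and 11 fell of 43, and the median was 0.02, so the lower median depends on the members. Over all genes 26.9% were called higher and 21.8% lower, and the 24 of 49 called are close to the share over all genes. BTG3 (3.02), LSM3 (2.57) and BTG1 (2.13) had the largest rises, and PAIP1 (-5.14), BTG4 (-4.40) and PAPOLG (-2.96) the largest falls, all by log2 fold change.

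Genes whose pattern was most like that of a member were found by Pearson's r on log2(RPKM + 1) over the 21 libraries, among 2765 tested genes that carry a symbol. All genes were measured in the same libraries, which differ in depth and fall into stages, and r is a description. BTG4 was followed most closely by TRIM59 (r = 0.979), TMEM60 (0.977) and HEY1 (0.977), and PAIP1 by TRIM59 (0.990), HIST1H1A (0.981) and HEY1 (0.977). CNOT10 was closest to MASTL (0.987), MIA3 (0.985) and OPA1 (0.984). YTHDF2 was closest to HOXA10 (0.993), WDR55 (0.972) and SDF2 (0.971), TUT7 to SBNO1 (0.965), MTERF1 (0.951) and ZBTB10 (0.931), and TENT5C to CERS2 (0.959), SYVN1 (0.953) and PCBD1 (0.951). Between members, r was 0.968 for BTG4 with PAIP1 and -0.69 for CNOT10 with YTHDF2.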

How the data were processed

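The authors deposited 1 table of RPKM values with 21 library columns. FastQC, STAR 2.5.3a and Partek are named, with no role or order, per the submitters' processing notes. The sources used here do not give the genome build, the strandedness or how multi-mapping reads were counted, so reads of similar or overlapping genes may be shared. No listed gene overlaps a member by the table's coordinates. After subtraction of 0.01 and multiplication by the gene span, 94.6 to 96.4% of each library's low values came out as multiples of 1 step (within 0.05 of a step), which gave reads and depth. The implied total was 24.0 to 66.6 M reads. The floor of 3 reads covers counting error only.

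The 4253 genes that reached 1 RPKM in 3 or more libraries entered limma 3.58.1 as log2(RPKM + 1) (trend, robust) in R 4.3.3, in 1 model of 7 stages, two-sided, with Benjamini-Hochberg adjustment over all genes tested. The script was tested on simulated data. Named genes are the 6 members, up to 3 rises and 3 falls per comparison with the largest change in the list, and the 3 genes most like each member. All genes of the CCR4-NOT, BTG and TOB, YTH and TENT5 groups were named as well. TUT4 and PABPN1 belong to the groups of TUT7 and PAIP1, in which not every gene is named. The members and lists were chosen with earlier results of these data known. Alternatives were another pseudocount (0.1 or 5), a filter at 5 RPKM, no filter, quantile normalization, median-ratio scaling, values not divided by the span, the library letter as a block, a fit on 2 stages, and leaving out libraries. Python 3.11.15, pandas 2.3.3, scipy 1.17.1 and matplotlib 3.10.9 were used.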

Additional observations from a re-analysis of the deposited data

How the results depend on the processing

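Over 31 alternatives, 1404 of 1457 values of single members kept their direction and side of the threshold, 28 lost and 25 gained a call, and no called change reversed. Main counts of members called were 2 from 8-cell to 16-cell, 2 from 16-cell to morula, 3 from morula to blastocyst, 1 from oocyte to 8-cell and 5 from 8-cell to morula. A pseudocount of 5 gave 0, 2, 0, 0 and 2, and a pseudocount of 0.1 gave 5 from morula to blastocyst and 0 from oocyte to 8-cell. The filter of 5 RPKM left 3 members to test, of which 3 varied with stage, 0 were called from 8-cell to 16-cell and 3 from 8-cell to morula. Quantile normalization and median-ratio scaling both gave 4 from 8-cell to 16-cell and 1 from morula to blastocyst. Without 16-cell C and morula C the counts were 6 from 8-cell to 16-cell, where calls over all genes also rose, and 2 from oocyte to 8-cell. The fit on 2 stages alone gave 4, 0, 1 and 2 in the first 4 of these comparisons, with 4 to 6 members tested. Leaving out 1 library gave 2 to 5, 1 to 3, 2 to 3, 0 to 2 and 4 to 5.

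Counts over the list of 49 genes were 3 from oocyte to 2-cell, 16 from 8-cell to 16-cell, 8 from 16-cell to morula, 17 from morula to blastocyst, 7 from oocyte to 8-cell and 24 from 8-cell to morula. Without division by the gene span, where 97 genes were tested, they were 23, 52, 14, 40, 32 and 57. A pseudocount of 5 gave 1, 6, 5, 4, 0 and 11, and a pseudocount of 0.1 gave 7, 27, 26 and 39 from oocyte to 2-cell, 8-cell to 16-cell, morula to blastocyst and 8-cell to morula. The filter of 5 RPKM, with 18 tested, gave 1, 9, 11, 3 and 15 for all but 16-cell to morula. Median-ratio scaling gave 25 from 8-cell to 16-cell and 9 from morula to blastocyst, quantile normalization 10 in the latter, and the fit on 2 stages 3 from 16-cell to morula. Leaving out 1 library gave 3 from oocyte to 2-cell, then 11 to 22, 4 to 14, 15 to 18, 3 to 9 and 21 to 26. The cause of these shifts was not tested.

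Deviations from the stage mean showed no shared pattern by library letter. They correlated above 0.1 in 18 of 63 same-letter pairs (r from -0.41 to 0.32, median -0.0196, against -0.00296 for other letters). Whether libraries of the same letter share a source is not given by the labels. With the letter as a replicate block the counts of members called were 1, 0, 0, 2, 2, 3, 1 and 5, as without it, and LSM7 lost its call (adjusted p = 0.0514). Scaling moved the share of higher calls over all genes. It was 91.6% from oocyte to 2-cell, 55.1% from 8-cell to 16-cell, 71% from 16-cell to morula, 13.4% from morula to blastocyst and 55.2% from 8-cell to morula, and 73.7%, 36.4%, 38.5%, 55.2% and 30.5% with median-ratio scaling. Quantile normalization gave 57.4% in the first of these, 52% from morula to blastocyst, 59.1% against 86.2% from 4-cell to 8-cell and 46.4% against 69.7% from oocyte to 8-cell. Median-ratio scaling moved the median gene from 0.01 to -0.64 from 8-cell to morula. Depth limits TENT5C in morula A and B and in blastocysts, at 4 reads or fewer per library.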
